A study of Homo sapiens with 4 samples.

Results

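The 9 human PAX genes, PAX1 to PAX9, were examined for 2 histone marks at their promoters. They were taken as the rows with these gene symbols, and each of the 9 was found once among 20242 promoters. Chromatin immunoprecipitation followed by sequencing (ChIP-seq) had been carried out in JMJD3c-hESCs, a line derived from SEES-3 human embryonic stem cells (hESCs). These cells carry a reverse Tet-transactivator and a piggyBac construct from which doxycycline (Dox) switches on JMJD3c, an HA-tagged fragment that holds the catalytic domain of JMJD3, an enzyme that takes methyl groups off H3 lysine 27, and the study selected stable clones with puromycin. The 4 groups were H3K27me3 without Dox (−Dox), H3K27me3 with Dox at 1 µg/ml (+Dox), H3K4me3 −Dox and H3K4me3 +Dox. All were kept in StemFit AK-03 medium and collected on day 3, with 1 library in each group, so no difference has a replicate check and no p-value is given. The control shares the construct with the treated cells and, by the labels, differs from them in Dox. In these libraries an effect of Dox itself and an effect of JMJD3c therefore cannot be told apart. The paper also treated a line with catalytically inactive JMJD3c with Dox and reports no significant expression change at representative developmental genes. That line is not among these libraries. NANOG, SOX2, LIN28A, DNMT3B and TDGF1 are genes that mark pluripotent cells. Their promoters had H3K4me3 values of 51.6 to 173 in −Dox and of 54.4 to 182 in +Dox cells. Values over 20, the threshold of the study's methods, were found at 63.7% and 62.7% of all promoters. The values at these genes therefore do not establish the cell state. The paper reports a differentiation-like morphology and lower expression of pluripotency genes after Dox.

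PAX proteins are transcription factors that bind DNA through a paired domain. They fall into 4 subgroups of paralogues by the other domains they carry. PAX1 and PAX9 lack a homeodomain, PAX2, PAX5 and PAX8 keep part of one, PAX3 and PAX7 have a whole homeodomain and an octapeptide, and PAX4 and PAX6 have a homeodomain without the octapeptide. Each directs the formation of particular tissues in the embryo, and the genes are largely silent in pluripotent cells. Trimethylation of lysine 27 (H3K27me3) is laid down by Polycomb complexes at CpG-rich promoters of silent developmental genes. Trimethylation of lysine 4 (H3K4me3) marks active promoters and, beside H3K27me3, promoters called bivalent.

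The sequences just upstream of 4 of the genes are shown because the paralogues PAX3 and PAX7 changed differently and had similar CpG numbers, and because PAX5 has a CpG-rich and PAX4 the most CpG-poor stretch of the family. Each is the 250 bases before the canonical GENCODE start, read 5′ to 3′ on the gene's strand from GRCh37, and capitals mark each CG dinucleotide. The positions are chr2:223163718-223163967 on the minus strand for PAX3, chr1:18957090-18957339 on the plus strand for PAX7, chr9:37034266-37034515 on the minus strand for PAX5 and chr7:127258197-127258446 on the minus strand for PAX4.
PAX3: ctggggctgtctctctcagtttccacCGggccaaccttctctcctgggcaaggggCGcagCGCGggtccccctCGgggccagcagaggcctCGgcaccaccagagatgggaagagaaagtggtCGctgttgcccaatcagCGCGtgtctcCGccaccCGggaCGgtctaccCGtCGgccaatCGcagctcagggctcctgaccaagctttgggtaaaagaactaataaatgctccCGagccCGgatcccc
PAX7: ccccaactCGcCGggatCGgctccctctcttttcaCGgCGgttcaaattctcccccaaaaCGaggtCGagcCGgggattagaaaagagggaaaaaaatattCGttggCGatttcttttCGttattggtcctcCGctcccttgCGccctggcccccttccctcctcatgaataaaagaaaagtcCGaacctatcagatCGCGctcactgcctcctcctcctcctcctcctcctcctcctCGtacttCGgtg
PAX5: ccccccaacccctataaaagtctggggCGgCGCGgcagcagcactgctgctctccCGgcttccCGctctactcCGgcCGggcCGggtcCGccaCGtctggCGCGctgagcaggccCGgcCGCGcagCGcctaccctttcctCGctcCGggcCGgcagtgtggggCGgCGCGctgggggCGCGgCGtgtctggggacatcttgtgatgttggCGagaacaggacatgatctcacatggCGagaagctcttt
PAX4: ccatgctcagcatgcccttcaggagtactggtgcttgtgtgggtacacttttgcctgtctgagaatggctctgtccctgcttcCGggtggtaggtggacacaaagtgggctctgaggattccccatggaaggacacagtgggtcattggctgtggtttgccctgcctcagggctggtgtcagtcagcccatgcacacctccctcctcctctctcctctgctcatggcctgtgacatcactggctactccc

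There were 17 CG dinucleotides in the PAX3 stretch, 18 in PAX7, 27 in PAX5 and 1 in PAX4. Over the 19288 genes with such a stretch the median was 18, and 97.2% of the stretches held at least 1 CG. PAX3 and PAX7 were therefore close to the median gene in these bases, and PAX4 had more CG dinucleotides than only 2.78% of genes. Over the whole measured window, 3 kb up and 3 kb down from the deposited start, all 8 PAX genes with a matched start were CpG-rich, with 228 CG dinucleotides at PAX8 to 326 at PAX6 against a median of 156 over 18244 promoters. PAX3 had 236 and PAX7 had 277 in this window. The deposited PAX4 transcript was not matched to the annotation, so its window could not be read, and its printed sequence may not lie at the start that was measured.

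The values below are signal, namely coverage that the authors scaled and added up from 3 kb before to 3 kb after 1 transcription start per gene. The smallest step between values, which is set by the scaling factor, was the same in both +Dox libraries (0.373, with a relative difference of 5.4e-12) and differed between the −Dox libraries. Whether each +Dox library was scaled to its own reads is therefore unknown, and every +Dox/−Dox ratio of a mark may carry 1 common factor. Such a factor cancels when paralogues are compared with each other and when libraries are rescaled to each other, and both are given below. The median promoter had an H3K27me3 value of 6.09 in −Dox and 5.97 in +Dox cells, about 4.75 and 4.78 reads, and an H3K4me3 value of 41.3 and 38.8. A change is the plain +Dox/−Dox ratio. Its 95% interval was obtained from estimated reads, through exact Clopper-Pearson limits for the share of reads found with Dox, and it covers counting error only and compares 2 libraries rather than 2 conditions. A promoter is said to have risen or fallen where this interval lies wholly above or below 1. Because the cells were measured in bulk, less mark per cell and fewer cells with the mark cannot be told apart.

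Most PAX promoters were among the most strongly H3K27me3-marked promoters of the genome before induction. H3K27me3 exceeded 20, the threshold of the study's methods, at 8 of the 9 in −Dox cells against 11.0% of all promoters, and at 7 of the 9 against 6.73% in +Dox cells. At the low end PAX4 had a value of 30.8 and PAX5 of 19.0, and the other 7 had at least 133. PAX1, a factor of the sclerotome and the pharyngeal pouches, had a value of 270, the 2nd highest of all 20242 promoters. PAX9, its paralogue in sclerotome, pharyngeal pouches and teeth, had 236 and stood at rank 20.

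**Figure D1:**
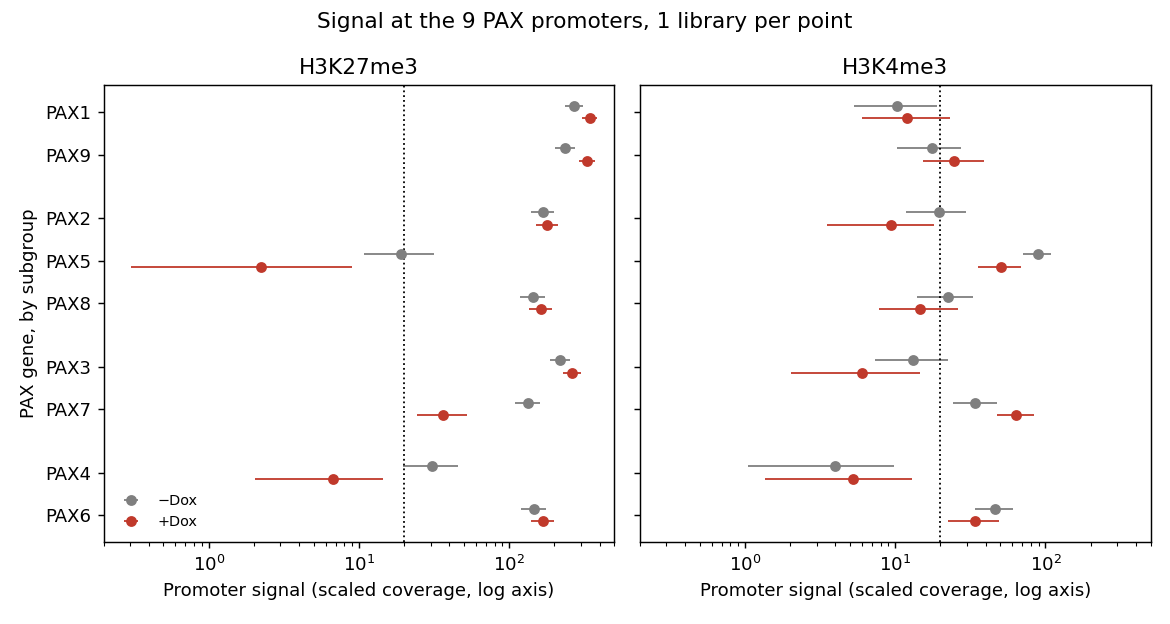
Promoter signal (scaled coverage, log axis) of H3K27me3 and H3K4me3 at the 9 PAX genes, grouped by paralogue subgroup, in −Dox (grey) and +Dox (red). Each point is 1 library, bars are 95% Poisson counting intervals, and the dotted line is the class threshold of 20. PAX7 falls from 133 to 36.5 in H3K27me3 while 6 of its relatives stay between 144 and 343 in both conditions.

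The order of H3K27me3 levels in −Dox cells was PAX1, PAX9, PAX3, PAX2, PAX6, PAX8, PAX7, PAX4 and PAX5. Only 2 neighbouring steps in this order exceeded counting error, from PAX3 to PAX2 with a ratio of levels of 1.30 (95% interval 1.03 to 1.64) and from PAX7 to PAX4 with 4.32 (2.76 to 7.07). The order of the 9 genes was the same in +Dox cells, where 4 neighbouring steps exceeded counting error. PAX8 now stood 4.45-fold (2.98 to 6.96) above PAX7, whereas in −Dox cells their levels had a ratio of 1.08 (0.817 to 1.42).

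H3K4me3 was lower at these promoters than at a typical one. Only 4 of the 9 exceeded 20 in −Dox cells against 63.7% of all promoters, and 4 of 9 against 62.7% in +Dox cells. PAX5, the regulator of B cell identity, had the highest value of 88.6 and was the only member above the genome median by more than its counting interval (71.3 to 108). The remaining values ran from 3.99 at PAX4 to 46.4 at PAX6. On the −Dox values 3 members were bivalent (PAX6, PAX7 and PAX8), 5 carried H3K27me3 only (PAX1, PAX2, PAX3, PAX4 and PAX9) and PAX5 carried H3K4me3 only, where 9.42%, 1.58% and 54.2% of all promoters fell into these classes. Several members lay near the threshold, since PAX2 had an H3K4me3 value of 19.7 and PAX9 of 17.7, and with a threshold of 10 the number of bivalent members was 8.

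Induction of JMJD3c was followed by opposite changes within the family. H3K27me3 fell at PAX4, PAX5 and PAX7, 3 of 9, against 6.96% of all 19462 promoters with a −Dox value. It rose at PAX1 and PAX9, 2 of 9, against 1.55%. The median log2 ratio of the 9 was 0.18, against −0.15 over all promoters with a −Dox value, −0.81 over the 1907 promoters bivalent in −Dox cells and −0.15 over the 380 with an H3K27me3 value of at least 100 in −Dox cells, which include all members but PAX4 and PAX5. Of the 2226 promoters with a −Dox value over 20, 47.5% fell and 2.83% rose. Of the 8 members among them PAX4 and PAX7 fell and PAX1 and PAX9 rose. Most of these rises, 49 of 63, lay in the strongly marked set of 380 named above, in which 111 fell. PAX1, PAX9 and PAX7 belong to that set. The wider shares therefore make the rises at PAX1 and PAX9 look rarer than they were at a like level. With the filter on the mean of both conditions, which a falling promoter can fail, 43.8% of 1793 fell and 3.79% rose.

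**Figure D2:**
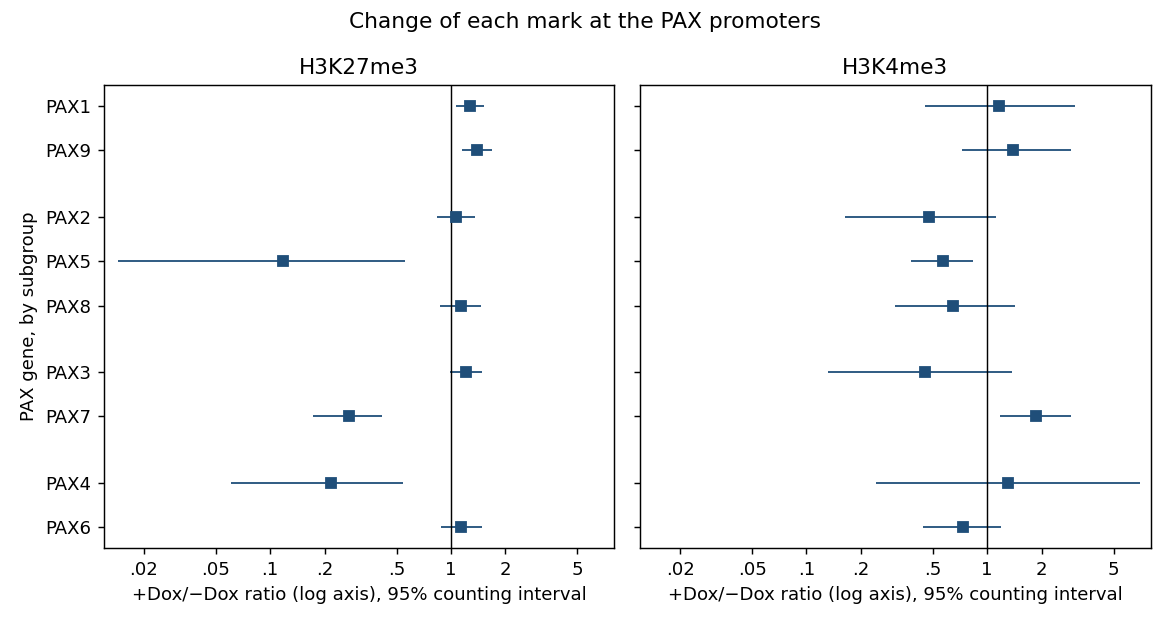
The +Dox/−Dox ratio (log axis) of each mark at each PAX promoter with its 95% counting interval, 1 library per condition. The H3K27me3 interval lies below 1 at PAX4, PAX5 and PAX7 and above 1 at PAX1 and PAX9, and the H3K4me3 interval lies below 1 at PAX5 and above 1 at PAX7.

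PAX3 and PAX7 both act in muscle and neural crest progenitors, and PAX7 marks the satellite cells of adult muscle. H3K27me3 at PAX7 (ENSG00000009709, chromosome 1, 18954340 to 18960340) measured 133 without and 36.5 with Dox, about 104 and 29 reads. This gave a ratio of 0.274 (0.173 to 0.413). At PAX3 (ENSG00000135903, chromosome 2, 223160378 to 223166378) it was 218 and 263, about 170 and 211 reads, a ratio of 1.21 (0.983 to 1.49). The mark thus fell at PAX7, and the interval at PAX3 left no room for a fall of that size in the same pair of libraries. The paper reports activation of both genes after JMJD3c overexpression, and expression was not measured here. H3K4me3 at PAX7 rose from 34.2 to 63.4, a ratio of 1.85 (1.18 to 2.91) whose interval included 1 with the estimated reads divided by 2. At PAX3 it was 13.1 and 5.97, about 14 and 5 reads, with a ratio of 0.455 (0.131 to 1.37) that included 1.

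The paralogues were also set directly against each other by dividing their ratios. A factor applied to a whole library cancels in this quotient. The H3K27me3 ratio of PAX3 was 4.41 times that of PAX7 (exact conditional interval 2.76 to 7.30), and with an interval widened by the Bonferroni rule for 12 comparisons the limits were 2.27 and 9.19. For H3K4me3 the ratio of PAX7 was 4.07 times that of PAX3 (1.20 to 15.2), which included 1 after the same widening (0.760 to 29.3). The H3K27me3 contrast was therefore larger than counting error by a margin that the H3K4me3 contrast did not have.

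**Figure D3:**
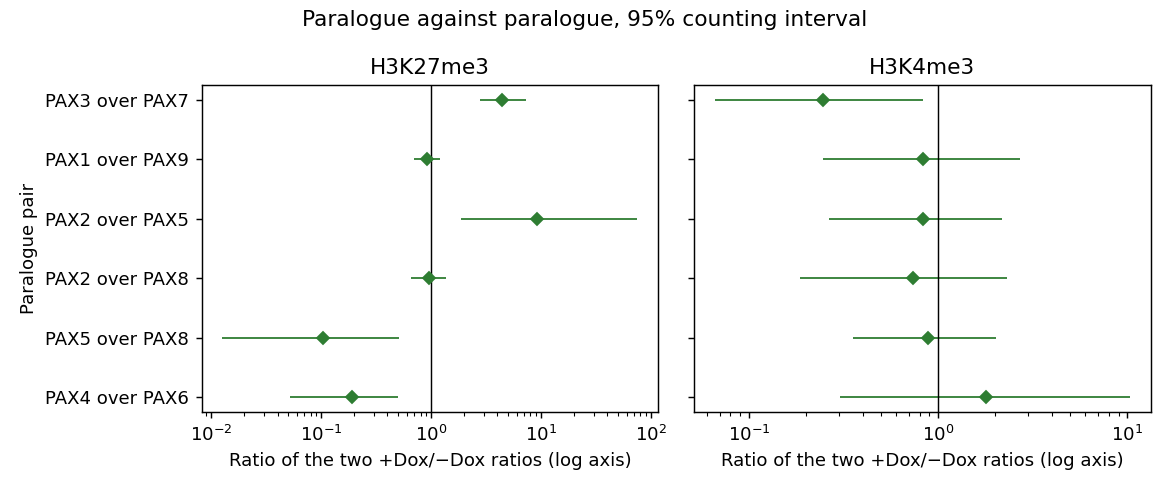
Quotient of the +Dox/−Dox ratios of 2 paralogues (log axis) for each mark, with exact conditional 95% counting intervals. For H3K27me3 4 of 6 pairs exclude 1, with PAX3 over PAX7 at 4.41, while PAX1 over PAX9 and PAX2 over PAX8 include it. For H3K4me3 only PAX3 against PAX7 excludes 1.

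PAX3 and PAX7 were both among the 380 promoters with an H3K27me3 value of at least 100 in −Dox cells, a grouping by starting level that was chosen after seeing the data. Of these, only 5 had a lower ratio than PAX7, whereas 317 had a lower ratio than PAX3. PAX3 thus lay in the upper part of this set, and PAX7 near its lower end. Of the 4277 promoters with a mean H3K4me3 value of 20 to 50 in both conditions together, 36 had a higher H3K4me3 ratio than PAX7.

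**Figure D4:**
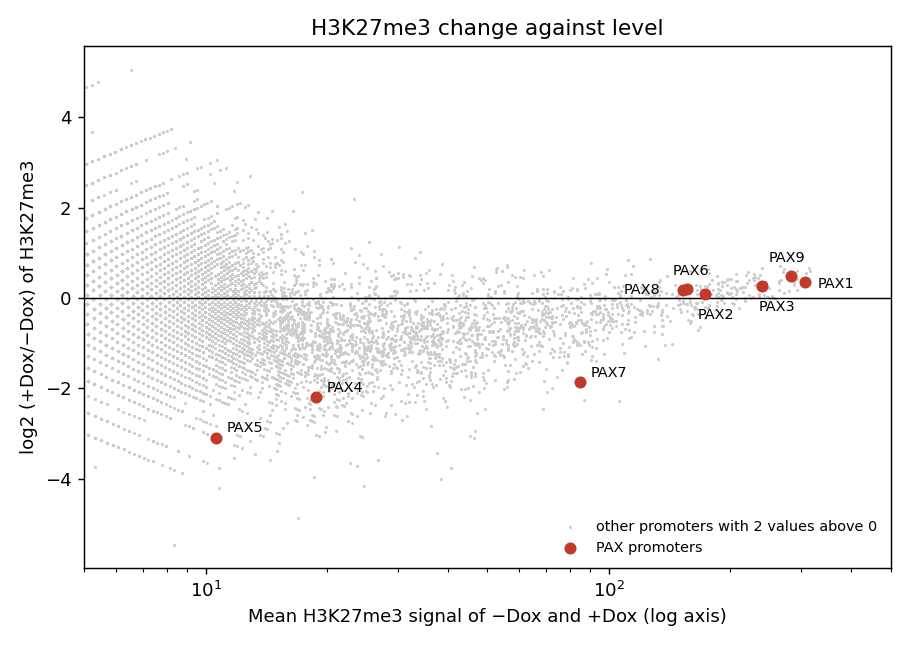
Log2 +Dox/−Dox ratio of H3K27me3 against the mean H3K27me3 signal of both conditions (log axis), with PAX promoters in red and other promoters in grey. The 6 PAX promoters above a mean of 100 lie between log2 ratios of 0.10 and 0.48, whereas PAX7 lies at −1.87. A falling promoter can miss that mean, as PAX7 did from a −Dox value of 133.

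The promoters most like each paralogue in all 4 libraries also differed. Likeness was the Euclidean distance in log2(value + 5), over 4 values only. The nearest to PAX7 were OTX2 (distance 0.35), a homeobox gene of the forebrain and midbrain, followed by GALNT14 (0.50) and CHSY3 (0.53). The values at OTX2 were 143 and 30.2 for H3K27me3 and 40.7 and 61.1 for H3K4me3. The nearest to PAX3 were CCDC140 (0.12), HOXB4 (0.25) and HOXC10 (0.26). The annotation places a CCDC140 start within the PAX3 window, so these windows can share reads and that likeness is not independent. PAX3 itself was closer to PAX1 (0.83) and PAX2 (0.88) than to PAX7 (3.99), and the closest pair of members was PAX2 and PAX8 (0.54).

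H3K27me3 rose at both PAX1 and PAX9. H3K27me3 at PAX1 (ENSG00000125813, chromosome 20, 21683297 to 21689297) measured 270 without and 343 with Dox (ratio 1.27, interval 1.06 to 1.53). At PAX9 (ENSG00000198807, chromosome 14, 37123773 to 37129773) it was 236 and 330, a ratio of 1.40 (1.15 to 1.70). Their quotient was 0.912 (0.698 to 1.19), so a difference between them within these limits was not detectable. A ratio above 1 does not show that the absolute amount of the mark rose, because the values are relative and their scaling factor is uncertain. H3K4me3 was 10.3 and 11.9 at PAX1 and 17.7 and 24.6 at PAX9, with ratios of 1.16 (0.451 to 3.07) and 1.39 (0.727 to 2.90). The value of 24.6 put PAX9 among the bivalent promoters in +Dox cells, but both intervals included 1. With the estimated reads divided by 2, of these genes only PAX9 still rose in H3K27me3. The deposited PAX9 start lies 4292 bp from the canonical one, which is outside its window.

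Both genes lie in regions with other developmental regulators, and the nearest promoters with a position were compared. Beside PAX1, NKX2-2, a homeobox factor of ventral neural tube and pancreas, began 192 kb away and measured 173 and 151 in H3K27me3 (ratio 0.873, interval 0.677 to 1.12). On the other side FOXA2, a factor of endoderm and floor plate, began 880 kb away and fell from 114 to 26.8, a ratio of 0.236 (0.144 to 0.387). Beside PAX9, the homeobox gene NKX2-8 began 74.95 kb away and rose from 116 to 164, a ratio of 1.41 (1.08 to 1.87), while SLC25A21-AS1, 514 kb away, had low values of 11.0 and 5.59. H3K27me3 thus rose at PAX1 and fell at FOXA2 on the same chromosome, and rose at both PAX9 and NKX2-8. Of the 16 nearest promoters with a position around the 8 positioned PAX genes, 6 had an H3K27me3 value over 20 in −Dox cells, 2 fell and 1 rose. Over all promoters the shares were 11.0%, 6.96% and 1.55%, and 47.5% of those over 20 fell. For PAX6 one of the 16 is RCN1, whose deposited start lies 5.05 kb away and whose window overlaps that of PAX6. CCDC140, which has an annotated start within the PAX3 window, is not among the 16.

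PAX2, PAX5 and PAX8 divided by level. PAX2 is needed in kidney, eye and the midbrain-hindbrain boundary and PAX8 in thyroid and kidney. H3K27me3 at PAX2 (ENSG00000075891, chromosome 10, 102502468 to 102508468) measured 167 without and 179 with Dox (ratio 1.07, interval 0.839 to 1.37). At PAX8 (ENSG00000125618, chromosome 2, 114033498 to 114039498) it was 144 and 163, a ratio of 1.13 (0.871 to 1.47). The quotient of PAX2 over PAX8 was 0.948 (0.660 to 1.36), and neither gene changed by more than its counting error.

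PAX5 (ENSG00000196092, chromosome 9, 37031265 to 37037265) fell in both marks. H3K27me3 was 19.0 and 2.24, about 15 reads against 2, a ratio of 0.118 (0.0144 to 0.558). H3K4me3 was 88.6 and 50.3, about 92 reads against 40, a ratio of 0.568 (0.381 to 0.830). Of the 6771 promoters with a mean H3K4me3 value of 50 to 100 only 41 had a lower ratio than PAX5, and 606 promoters, or 3.08% of the 19678 with a −Dox value, fell in H3K4me3. Its H3K27me3 quotients against both relatives excluded 1 even after widening, at 9.11 (1.85 to 75.2) for PAX2 over PAX5 and 0.104 (0.0126 to 0.514) for PAX5 over PAX8. These quotients rest on the few reads at PAX5. With the estimated reads divided by 2, both included 1, as did the interval of the H3K27me3 ratio of PAX5.

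H3K4me3 at PAX2 and PAX8 was low. It was 19.7 in −Dox and 9.32 in +Dox cells at PAX2, a ratio of 0.474 (0.163 to 1.12). It was 22.5 and 14.5 at PAX8, a ratio of 0.646 (0.308 to 1.42), which placed PAX8 below the threshold and among the H3K27me3-only promoters in +Dox cells. No pair within this subgroup differed in its H3K4me3 ratio beyond counting error, with quotients of 0.835 (0.266 to 2.19) for PAX2 over PAX5, 0.734 (0.186 to 2.30) for PAX2 over PAX8 and 0.879 (0.356 to 2.03) for PAX5 over PAX8. These intervals are wide, and PAX2 and PAX8 had about 20 and 23 reads of H3K4me3 in −Dox cells. The windows hold 3 of the 5 annotated coding starts of PAX2, 4 of 7 of PAX5 and 4 of 6 of PAX8. Their farthest starts lie 10315, 31593 and 43478 bp from the measured ones. Starts outside the windows were not measured in either mark.

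PAX6 directs eye, forebrain and pancreatic islet development, and PAX4 acts in pancreatic beta cells. H3K27me3 at PAX6 (ENSG00000007372, chromosome 11, 31829879 to 31835879) measured 146 without and 167 with Dox (ratio 1.14, interval 0.885 to 1.48), and H3K4me3 was 46.4 and 33.9, a ratio of 0.730 (0.440 to 1.20). PAX6 stayed bivalent, with no change beyond counting error in either mark. The window holds 20 of the 45 annotated coding starts of PAX6, and the farthest lies 8086 bp from the measured one, so other PAX6 promoters were not measured here.

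PAX4 (ENSG00000106331, position not assigned) was weakly marked. H3K27me3 dropped from 30.8 to 6.71, some 24 and 5 reads, with a +Dox/−Dox ratio of 0.218 (0.0605 to 0.542). H3K4me3 was 3.99 and 5.22, about 4 reads in each library, which is too few to tell whether H3K4me3 differed. PAX4 therefore went from H3K27me3-only to the unmarked class. The H3K27me3 quotient of PAX4 over PAX6 was 0.190 (0.0514 to 0.497), and it excluded 1 after widening (0.0272 to 0.724).

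For H3K4me3 over the whole family, PAX5 was the 1 of 9 that fell, against 3.08% of all promoters, and PAX7 the 1 of 9 that rose, against 1.76%. Among the 12840 promoters with a mean H3K4me3 value over 20, which include PAX5, PAX6, PAX7 and PAX9, 4.17% fell and 1.87% rose. The median log2 ratio of the 9 was −0.45, against −0.03 over all promoters with a −Dox value and −0.18 over promoters bivalent in −Dox cells. It was 0.01 over the 4 members with a mean value over 20, so its direction rested on the members with little H3K4me3. PAX7 was the only member at which H3K27me3 fell and H3K4me3 rose.

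Scaling moved the upper end of these results. With the libraries of a mark brought to the same total, H3K27me3 ratios are multiplied by 1.18, and the members that rose are then 5, namely PAX1, PAX3, PAX6, PAX8 and PAX9. Under it 3.11% of all promoters and 6.83% of those with a −Dox value over 20 rose, and 4.36% and 30.6% fell. That scaling moves the median log2 H3K27me3 ratio of all promoters with a value in both conditions from −0.14 to 0.10. With a median ratio of 1 over low promoters, a factor of 1.06, the members that rose are PAX1, PAX3 and PAX9. Under it 1.95% of all promoters and 4.45% of those over 20 rose, and 6% and 39.7% fell. PAX4, PAX5 and PAX7 fell under both scalings. PAX1 and PAX9 rose under both, but both multipliers are above 1, so these rises could not have been lost. The factor used in the deposited values cancels in both scalings, although the low promoters were picked by their deposited values. Bringing libraries to the same total assumes no overall loss of the mark, whereas the paper reports a loss by immunoblotting.

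CpG number and H3K27me3 were compared over the windows. The share of promoters with an H3K27me3 value over 20 in −Dox cells went from 1.07% in the lowest of 5 equal groups of promoters ordered by CG number to 24.9% in the highest (223 to 692 in the window). All 8 positioned members belong to this highest group, and 7 of them exceeded 20. PAX5 had 246 CG dinucleotides and a value of 19.0, and PAX3 had 236 and a value of 218, so similar CpG numbers went with different levels within the family. PAX7 and PAX9, with 277 and 297, changed in opposite directions.

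**Figure D5:**
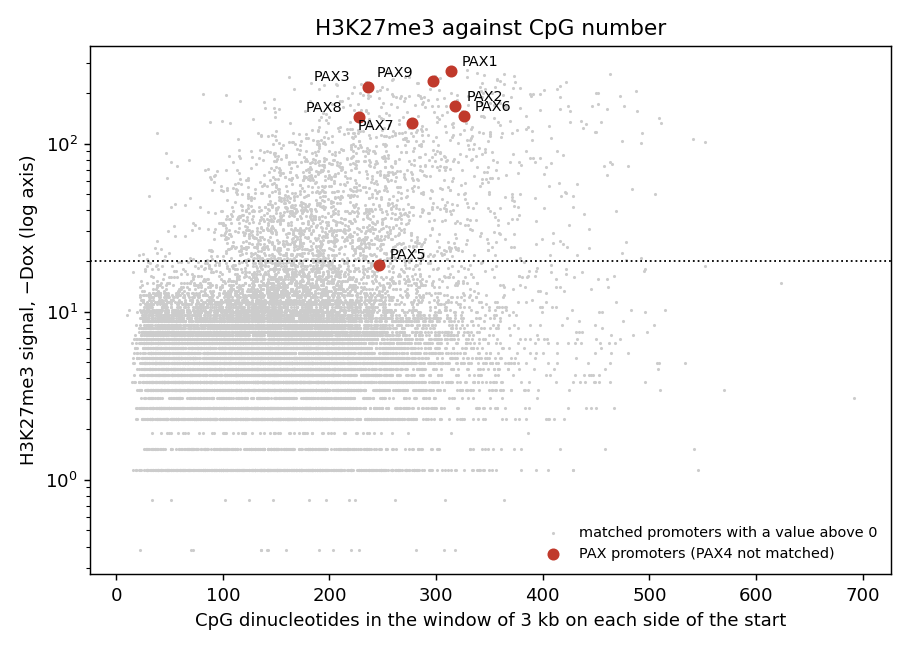
H3K27me3 signal in −Dox cells (log axis) against the number of CG dinucleotides within 3 kb of the start in either direction, with PAX promoters in red, other matched promoters in grey and the threshold of 20 dotted. The 8 positioned PAX promoters lie between 228 and 326 CG dinucleotides, and all but PAX5 lie above 100 in signal.

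Genes that act with or downstream of each subgroup were compared from written lists. Their counts stand beside the 47.5% of promoters with a −Dox value over 20 that fell and the 2.83% that rose. These shares depended on the starting level. In the set of 380 that began at 100 or more, 49 rose and 111 fell, whereas 5 of the 1276 between 20 and 50 rose. Every listed gene that rose in the deposited values began above 100, so 2.83% is a low comparison for the rises. Of the 12 genes listed for PAX3 and PAX7, which include factors of muscle and neural crest, H3K27me3 fell at 1 and rose at 0, and the median log2 ratio was 0.02. The gene that fell was ZIC1, a factor of the neural plate border, from 62.0 to 21.6 with a ratio of 0.349 (0.186 to 0.611). H3K4me3 did not pass the interval rule at any of the 12. With scaling to the same total 3 of the 12 rose in H3K27me3, and 6.83% of all promoters with a −Dox value over 20 did. Of the 12 only 7 had an H3K27me3 value over 20 in −Dox cells, so the others had few reads in which a fall could be seen. Thus 1 of 7, rather than 1 of 12, stands beside the 47.5%. Among the 7, DMRT2, LBX1, MSX1, MSX2 and TFAP2A began above 100, a level at which falls were less frequent (111 of 380).

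Of the 14 genes listed for PAX4 and PAX6, with eye, neural and pancreatic factors, H3K27me3 fell at 6 and rose at 1, and the median log2 ratio was −0.32. All of these 7 were among the 11 that exceeded 20 without Dox, so 6 of 11 stand beside the 47.5% over all such promoters. SIX6, a homeobox gene of eye and pituitary, fell from 176 to 36.2, a ratio of 0.205 (0.133 to 0.309), and its H3K4me3 rose from 59.8 to 145, a ratio of 2.43 (1.78 to 3.38). SIX3, which patterns forebrain and eye, fell with a ratio of 0.334 (0.159 to 0.621), and MEIS2, a cofactor of homeobox proteins, with 0.390 (0.234 to 0.612). H3K4me3 rose at MEIS2 and SIX6 and fell at NEUROD1 and PITX3, so 2 of the 14 rose and 2 fell. Over all promoters with an H3K4me3 value in −Dox cells, 1.76% rose and 3.08% fell in this mark.

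Of the 20 genes listed for PAX2, PAX5 and PAX8, with kidney, thyroid, midbrain and B cell genes, H3K27me3 fell at 6 and rose at 4, and the median log2 ratio was −0.33. Among 12 that exceeded 20 without Dox, 5 fell and 4 rose. The 4 that rose, EN1, EN2, NKX2-1 and WT1, had −Dox values of 167 to 230, a level at which rises were more frequent. SIX2, a homeobox gene of kidney progenitors, fell from 124 to 58.2, a ratio of 0.471 (0.329 to 0.683).

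Of the 11 genes listed for PAX1 and PAX9 (MSX1 is also on the PAX3 and PAX7 list), with factors of sclerotome, limb and tooth, H3K27me3 fell at 5 and rose at 1, and the median log2 ratio was −0.12. BMP4, a signalling ligand, fell from 54.4 to 8.95, a ratio of 0.165 (0.0615 to 0.365), TBX15 with a ratio of 0.428 (0.301 to 0.594) and SOX9, needed for cartilage, with 0.437 (0.230 to 0.826). All 6 that fell or rose were among the 10 with a −Dox value over 20. UNCX, a homeobox gene of the somites, rose from 137 to 215, a ratio of 1.57 (1.22 to 2.01), as PAX1 and PAX9 did. H3K4me3 fell at 2 of the 11, UNCX with a ratio of 0.372 (0.138 to 0.909) and NKX3-2 with 0.541 (0.359 to 0.814). The share that fell in this mark over all promoters was 3.08%. Both genes were bivalent in −Dox cells, a class with a median log2 H3K4me3 ratio of −0.18. With scaling to the same total the medians of the 4 lists were 0.25, −0.09, −0.09 and 0.12 in the order given here, so the sign of the last one was not stable. Under that scaling H3K27me3 fell at 4 and rose at 2 of the 14 genes listed for PAX4 and PAX6. H3K27me3 fell at 4 and rose at 7 of the 20 listed for PAX2, PAX5 and PAX8. It fell at 3 and rose at 3 of the 11 listed for PAX1 and PAX9. With the same scaling 30.6% of all promoters with a −Dox value over 20 fell and 6.83% rose. The median log2 ratio of the 380 that began at 100 or more was then 0.08, so rises are a less rare outcome there.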

How the data were processed

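H3K27me3 and H3K4me3 ChIP-seq libraries of JMJD3c-hESCs were used, 1 per mark and condition. The authors mapped single-end MiSeq reads to hg19 with Bowtie2, removed mitochondrial reads and computed profiles with ngs.plot, whose version is not given in the sources used here. The submitters' processing notes also name CASAVA 1.4. The values deposited by the authors are signal, namely coverage scaled by a factor for the library and summed over 3 kb on each side of 1 transcription start per Ensembl gene. Whether their scaling to the density downstream of transcription ends was applied to these files cannot be read from the sources used here. Input DNA was not used, and relative values cannot show an equal loss at every site.

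All values (100%) were whole multiples, within 0.001 of a step, of 0.380 (H3K27me3 −Dox), 0.373 (H3K27me3 +Dox), 0.285 (H3K4me3 −Dox) or 0.373 (H3K4me3 +Dox). Taken as 1 read at 1 data point, these steps correspond to scaling factors of about 2629351, 2682085, 3509244 and 2682085 reads. The factors of both +Dox libraries are the same, so they may not be the read number of each, and the reason was not tested. Estimated reads do not depend on the factor, whereas +Dox/−Dox ratios do. Low values of 3 to 4 and of 6 to 8 steps were taken as 1 and 2 reads, which gave 3.37, 3.35, 3.37 and 3.36 data points per read. The resulting reads are estimates and were used for intervals only. Intervals cover counting error only, because without molecular identifiers PCR copies count as separate reads. Interval code was tested on simulated data. Positions are 1-based GRCh37 coordinates, the assembly behind hg19, from GENCODE annotation matched by transcript identifier, for 18244 of 20242 promoters (90.1%) and 8 of the 9 PAX genes. Calculations used Python 3.11.15, pandas 2.3.3 and scipy 1.17.1.

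The PAX members, the lists of associated genes and the rules for named genes (the 9 members, up to 3 genes of each list whose interval excluded 1, the 3 promoters nearest in pattern to PAX3 and PAX7, and the neighbours of PAX1 and PAX9) were chosen with earlier results of these data known. Some genes that these rules name are not reported here. Alternatives were another class threshold, 2 scalings, a pseudocount of 5, fewer reads and a filter on low values. Grouping by the −Dox level and the shares of all promoters under each scaling were added after seeing the data.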

Additional observations from a re-analysis of the deposited data

How the results depend on the processing

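The family summaries were recomputed under the alternatives. The number of bivalent members was 3, and it was 8 with a class threshold of 10 and 2 with a threshold of 30. The number of members at which H3K27me3 rose was 2, and it became 5 with scaling to the same total, 3 with a median ratio of 1 over low promoters and 1 with the estimated reads divided by 2, when only PAX9 remained. The number that fell stayed at 3 under both scalings and was 2 with fewer reads, without PAX5. The median log2 H3K27me3 ratio of the members became 0.41 with scaling to the same total and was 0.17 to 0.27 under the other alternatives. The median log2 H3K4me3 ratio was −0.56 to −0.40 under scalings and pseudocount, and 0.01 over the members with a mean value over 20, which are 4. The quotient of PAX3 over PAX7 for H3K27me3 was 4.41 and excluded 1 under each alternative interval, and was 4.01 with a pseudocount of 5. The quotient of PAX7 over PAX3 for H3K4me3, 4.07, no longer excluded 1 with the estimated reads divided by 2 (0.776 to 51.8) or with the Bonferroni interval (0.760 to 29.3), and both intervals are wider by construction. All 54 ratios of single members recomputed with a scaling or a pseudocount stayed inside their counting intervals. A ratio can stay inside its interval while its call changes, and the number of members that rose did change with scaling. No paired analysis was possible because every combination of mark and condition holds a single library, and for the same reason none could be left out. With the level taken from the mean of both conditions, the share of like-level promoters with a lower H3K27me3 ratio was 76.8% for PAX3 and 1.36% for PAX7. These shares come from different sets, 298 promoters with a mean of at least 100 for PAX3 and 441 with a mean of 50 to 100 for PAX7. With the level taken from the −Dox value, both genes are in the same set of 380, and the shares were 83.4% and 1.32%. That alternative was chosen after seeing the data.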
